A study of Rattus norvegicus with 12 samples.

Results

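The genes described here are the antioxidant and glutathione defence genes of the hypothalamic arcuate nucleus (ARC), the cell group at the base of the brain that senses energy state and regulates appetite. The list holds 41 genes, chosen by name, and each was read from the brightest probe set that the platform annotation gives to that gene alone. By this rule 40 of the 41 genes were measured, out of 31042 probe sets tested. Prdx1 was not, because its one probe set carries a second symbol. The 40 genes fall into 17 of the glutathione system, 11 of the thioredoxin system, 4 that dispose of superoxide and hydrogen peroxide, 2 methionine sulphoxide reductases and 6 of the Nrf2 and haem group.

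The animals were male Wistar rats, killed at 3 months of age. Control animals were born to dams on the control diet, while the recuperated animals had dams on a diet of 8% protein in pregnancy. Both groups are recorded as fostered on postnatal day 3, and both were nursed by control dams. All were weaned onto standard chow. Recuperated litters were smaller than control litters and all male, so the maternal diet and the size and sex make-up of the litter cannot be told apart. ARC tissue was cut from stained brain sections with a laser, its RNA was amplified, and each of 6 control and 6 recuperated arrays (Affymetrix rat genome expression arrays) held the RNA of 1 animal. The study counts litters as n. The levels given here are log2 signals with the median of the array subtracted, so that 0 is the middle probe set of an array, and each difference is recuperated minus control on the log2 scale. Binding strength varies from one probe set to another, so levels are not compared between genes.

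Reactive oxygen species are by-products of respiration and of oxidase enzymes. Superoxide dismutases turn superoxide into hydrogen peroxide, which catalase, the glutathione peroxidases and the peroxiredoxins then reduce. The peroxidases are kept working by glutathione, a tripeptide recycled by glutathione reductase, and the peroxiredoxins by thioredoxin, recycled by thioredoxin reductases. Nrf2 (encoded by Nfe2l2) switches on many of these genes through a short DNA sequence, the antioxidant response element, and is held back by Keap1. In the brain, glutathione synthesis and Nrf2 activity are known to be strong in astrocytes.

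One array stood apart in marker genes outside the list. On recuperated array 4, all 8 measured ARC markers read lowest of the 12 arrays, with a mean of 0.72 against 3.03 to 3.36 on the other arrays, and all 5 measured markers of the neighbouring ventromedial nucleus (VMN) read highest, with a mean of 3.23 against -0.01 to 1.43. Tanycyte and ependymal markers were lowest there for 6 of 7 genes (mean 0.17 against 1.57 to 2.35), and microglial markers for 7 of 8 (0.45 against 0.89 to 1.40). Of these 7 microglial markers, Cx3cr1 tied with control array 6 and Itgam with recuperated array 5. The astrocyte markers had a mean of 4.69 on this array, and of 4.68 to 4.95 on the others, but single genes moved in opposite directions. Of the 7 measured, 2 read lowest there, Gfap (5.1 against 5.93 to 6.56 on the other arrays) and S100b (5.33). Slc1a2 read highest there, at 4.76 against 3.54 to 4.37. The neuronal and oligodendrocyte markers had their highest means of the 12 arrays there, 4.92 against 4.08 to 4.53 and 4.18 against 3.62 to 4.01. Of the ARC markers, Npy, Cartpt, Th, Ghrh and Gal exceeded the array median on all 12 arrays, whereas the probe set of Pomc lay above it on 0. Pomc was lowest on recuperated array 4 by a narrow margin, at -0.75 against -0.74 on recuperated array 6. The counts, medians and main genes below are therefore also given without recuperated array 4. The tissue is a mixture of cell types, so fewer cells of a type and less RNA per cell cannot be told apart.

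The regulatory sequence of these genes was read from RefSeq promoters of the GRCr8 assembly, from 250 bases before to 50 bases after each gene start. Of the 40 measured genes, 34 had at least 1 promoter in the table, 43 promoters in all. The core letters of the antioxidant response element, TGACNNNGC on either strand, were found in 9 of the 43 (20.9%), each of a different gene, and in 12.1% of all 33469 promoters. The 5 genes whose match lay wholly upstream of the gene start are shown because they carry the letters through which Nrf2 acts. They encode a glutathione transferase, the modifier subunit of the enzyme that limits glutathione synthesis, the cytosolic thioredoxin reductase, the mitochondrial superoxide dismutase and the constitutive haem oxygenase. Each is written 5′ to 3′ on the strand of the gene, with the match in capitals and 10 bases on each side.
Gstp1, chr1:210769748-210769776 (- strand): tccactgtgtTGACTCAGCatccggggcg
Gclm, chr2:213031953-213031981 (+ strand): tgcggtttctGCTTAGTCAttgtcttcca
Txnrd1, chr7:22755964-22755992 (- strand): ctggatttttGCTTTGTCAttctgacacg
Sod2, chr1:50050185-50050213 (- strand): ggcgctgccgGCAGGGTCAgcgcctagct
Hmox2, chr10:11337689-11337717 (- strand): gtcttggaagGCAGTGTCAgcttggccag

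The matches began at positions -61 (Gstp1), -172 (Gclm), -78 (Txnrd1), -35 (Sod2) and -95 (Hmox2) from the gene start, and 1 of these 5 lay in the forward direction, that of Gstp1. In Prdx5, Msrb2, Prdx4 and Nfe2l2 the match lay at or beyond the gene start. The 9 genes with the letters had a median log2 fold change of -0.11, from -0.29 to 0.04, and 8 of the 9 were negative. The 25 genes with a promoter but without the letters had a median of -0.14, from -0.48 to 0.18, and 19 were negative. Without recuperated array 4 the medians were -0.05 in both. The ranges of both sets overlapped, and the difference between them was not tested.

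The 250 bases upstream of Gpx3 and Txn2, the genes with the smallest P in the glutathione and thioredoxin groups, are printed so that their promoters can be set beside the values below. Capitals mark the GC box, GGGCGG on either strand, which 33.1% of all promoters hold in their 300-base window. Of the 34 measured genes with a promoter, 30 held a GC box in at least 1 promoter, so the box does not set Gpx3 and Txn2 apart. Matches of either motif were counted whether or not they overlapped.
Gpx3, chr10:39529085-39529334 (+ strand): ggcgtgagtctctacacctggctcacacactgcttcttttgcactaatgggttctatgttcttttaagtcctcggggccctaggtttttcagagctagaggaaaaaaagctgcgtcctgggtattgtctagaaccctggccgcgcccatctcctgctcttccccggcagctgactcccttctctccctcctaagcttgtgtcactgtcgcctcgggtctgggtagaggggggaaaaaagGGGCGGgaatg
Txn2, chr7:111390941-111391190 (- strand): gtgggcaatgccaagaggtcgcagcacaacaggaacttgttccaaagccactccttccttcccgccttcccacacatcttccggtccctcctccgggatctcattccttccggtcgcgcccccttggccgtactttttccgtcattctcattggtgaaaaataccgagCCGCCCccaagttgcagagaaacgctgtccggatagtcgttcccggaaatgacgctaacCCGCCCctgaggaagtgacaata

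The Gpx3 sequence held 1 GC box, 9 CpG dinucleotides and 55.2% G and C, and that of Txn2 held 2 GC boxes, 17 CpG dinucleotides and 56.4%. Neither held the letters of the antioxidant response element (0 matches each). A match of letters is a description of the sequence, and the arrays do not show whether any factor was bound there.

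Across the 40 genes the differences were small and mostly negative. The log2 fold change was below 0 for 32 genes (80.0%) and above 0 for 8, where 56.6% of all 31042 probe sets were below 0, and without subtraction of array medians 30 of the 40 were below 0. The median over the genes was -0.13, against -0.03 over all probe sets. Without recuperated array 4 it was -0.05, against -0.03 over all probe sets, and 32 genes were below 0 (56.3% of all probe sets), with Gclc now below 0 and Txnrd1 above it. Several marker lists were also mostly negative. Of the ARC markers 8 of 8 were below 0 (median -0.54, and -0.09 without recuperated array 4). So were 6 of 7 tanycyte and ependymal markers (median -0.33, and 0.01 without that array), 5 of 7 astrocyte and 4 of 6 oligodendrocyte markers. Neuronal markers were split, with 3 of 6 below 0. Of the VMN markers 4 of 5 were positive (median 0.12, and -0.295 without that array). Of the microglial markers 7 of 8 were below 0 (median -0.22, and -0.10 without recuperated array 4), and of the markers of meninges and mural cells 6 of 6 (median -0.23, and -0.19 without it). Tagln, a smooth muscle gene of that list, was lower past 1.3-fold, at -0.69 ± 0.21 (limma P = 0.0057; exact permutation test, p = 0.0195). The endothelial gene Cldn5 differed by -0.33 ± 0.14 (limma P = 0.0320; exact permutation test, p = 0.0130), although 5 of 7 endothelial markers were positive. Slc6a3, an ARC marker, was also lower past 1.3-fold, at -0.71 ± 0.32 (limma P = 0.0459; exact permutation test, p = 0.0606), and at -0.40 without recuperated array 4. The oligodendrocyte gene Cnp differed by -0.25 ± 0.11 (limma P = 0.0418; exact permutation test, p = 0.0152). The mean level of the microglial markers ran from 1.03 to 1.40 over control arrays and from 0.45 to 1.38 over recuperated arrays, and that of meninges and mural cells from -1.45 to -0.31 and from -1.83 to -0.53. The part of these cell types in the differences of the 40 genes was not tested. The 40 genes lay between -0.48 (Gpx3) and 0.25 (Gsr), with a median standard error of 0.17.

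Few of these differences passed an unadjusted threshold, and none passed after adjustment. At an unadjusted P under 0.05 in limma, 3 of 40 genes were lower in recuperated animals, namely Gpx3, Txn2 and Msra, and 0 were higher, where 2.00% and 1.45% of all probe sets were called. At the study's threshold of 1.3-fold with P under 0.05, taken here from limma, Gpx3 alone was lower and 0 genes were higher, where 1.27% and 1.20% of all probe sets were called. The study took forward only genes that met its threshold under each of its algorithms (GCOS, RMA and GC-RMA), a rule not applied here. After Benjamini-Hochberg adjustment in limma no gene was called, nor was any of the 31042 probe sets (0.00%), and the smallest adjusted p among the genes was 0.999. In 0 of the 40 genes did the groups fail to overlap, against 0.155% of all probe sets. An exact two-sided permutation test, which can reach 0.00216 at the lowest with its 924 arrangements, gave p under 0.05 for the same 3 genes. The number of genes under 0.05 in limma was 1 to 5 when single arrays were left out in turn, with 1 without control array 4 or recuperated array 6 and 5 without recuperated array 3, and at 1.3-fold it was 0 without control array 4. Genes that passed only when 1 array was left out were Gpx4 (-0.46 without control array 3, -0.44 without recuperated array 1), Gpx7 (-0.56 without recuperated array 3), Gsr (0.32 without control array 1), Mgst3 (-0.46 without recuperated array 4), Srxn1 (0.27 without recuperated array 5), Txnrd2 (-0.42 without recuperated array 3) and Nfe2l2 (-0.38 without control array 6). The plot of fold changes by subgroup sets out all 40 differences with their errors.

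**Figure D1:**
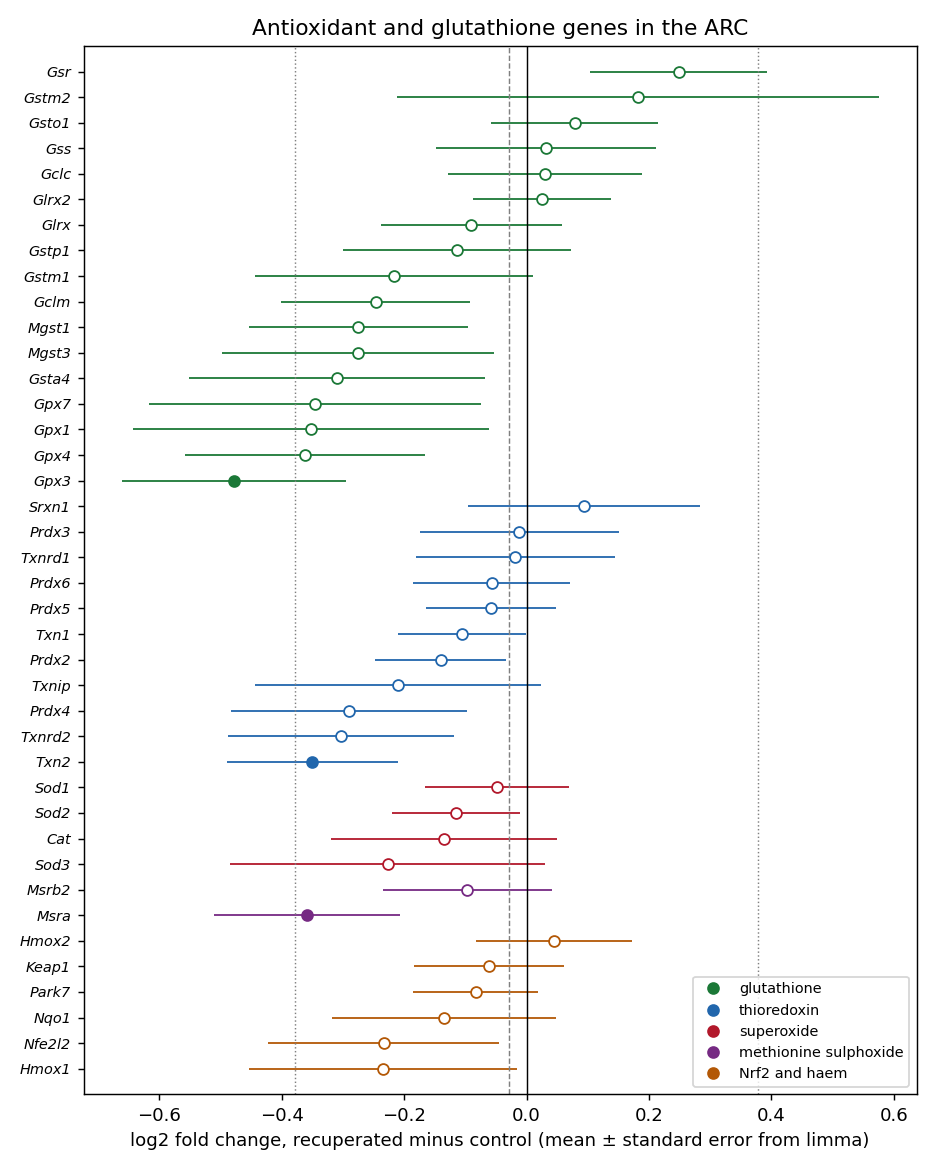
Log2 fold change of each of the 40 genes (points, recuperated minus control; bars are the standard error from limma, 6 arrays per group), ordered within subgroup. Filled points are the 3 genes with an unadjusted P under 0.05, the dotted lines mark 1.3-fold, the dashed line the median of all probe sets, and 32 of 40 points lie left of 0.

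The glutathione peroxidases are selenium- or cysteine-containing enzymes that reduce peroxides with glutathione. The 4 of the list lay between -0.48 and -0.35, with a median of -0.36, and all 4 were negative under each alternative scaling of the arrays. Without recuperated array 4, on which each of the 4 read lowest, the median was -0.21. Outside the list, Gpx2 differed by -0.08 ± 0.40, Gpx6 by -0.26 ± 0.13 and Gpx8 by -0.20 ± 0.18. Without recuperated array 4 these differences were 0.29, -0.22 and -0.09.

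Gpx3 encodes the secreted peroxidase. On control arrays it read 4.31 at the lowest, 4.49 at the median and 4.93 at the highest, and on recuperated arrays 3.32, 4.17 and 4.45. All 6 recuperated arrays lay below the control mean of 4.53 ± 0.22 (SD, n = 6), and 4 of the 6 lay below every control array, although the groups overlapped through recuperated arrays 2 and 3. The difference was -0.48 ± 0.18 (SE), a level 0.718 of control on the linear scale (limma P = 0.0203, adjusted p = 0.999; exact permutation test, p = 0.0130). Without recuperated array 4, the lowest, it was -0.33 (limma P = 0.0387; exact permutation test, p = 0.0281). Without control array 4, the highest of its group, it was -0.40, and limma no longer called it (limma P = 0.0507; exact permutation test, p = 0.0346).

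Gpx1 encodes the cytosolic peroxidase found in most cells. It read 4.04, 4.21 and 4.30 at the lowest, median and highest control array, and 2.24, 4.13 and 4.36 in recuperated animals. The low value belonged to recuperated array 4 and the other 11 arrays lay between 3.96 and 4.36, so that the difference of -0.35 ± 0.29 (limma P = 0.247; exact permutation test, p = 0.362) became -0.03 without it. Gpx4, which reduces lipid peroxides in membranes and guards against ferroptosis, had control values of 3.42, 4.00 and 4.27 and recuperated values of 2.80, 3.57 and 3.94. Its difference was -0.36 ± 0.20 (limma P = 0.0859; exact permutation test, p = 0.104) and -0.21 without recuperated array 4, and only the value of that array lay below every control array. A second, dimmer probe set of Gpx4 gave -0.17 ± 0.19. Gpx7, a peroxidase of the endoplasmic reticulum, differed by -0.35 ± 0.27 (limma P = 0.224; exact permutation test, p = 0.292), with a signal above the array median on 3 of 12 arrays.

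**Figure D2:**
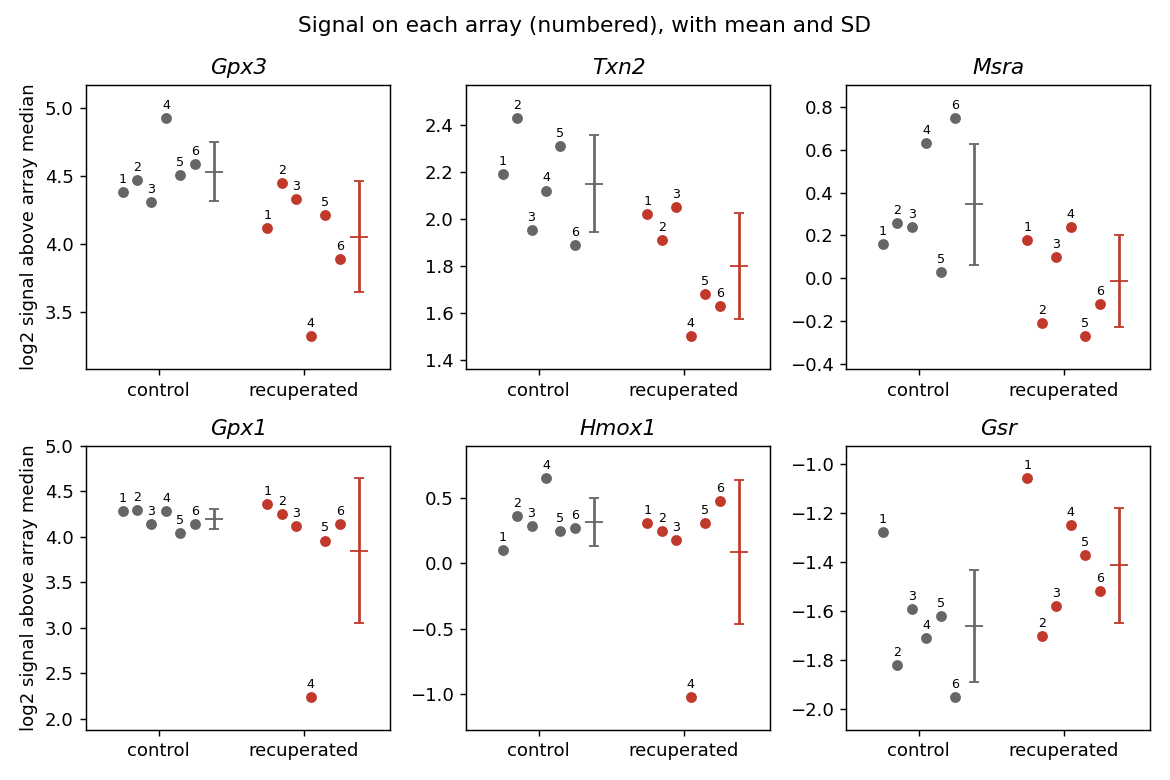
Log2 signal above the array median (vertical axes, each with its own range) for Gpx3, Txn2, Msra, Gpx1, Hmox1 and Gsr on each of the 6 control (grey) and 6 recuperated (red) arrays, numbered, with the group mean and SD beside the points. Recuperated array 4 sets the low recuperated mean of Gpx1 and Hmox1, at 2.24 and -1.02, whereas for Msra it is the highest recuperated array, at 0.24.

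Of the 4 enzymes that make and recycle glutathione, 3 were positive with all arrays, and 2 were negative without recuperated array 4. Gsr, glutathione reductase, had the largest positive difference of the list, 0.25 ± 0.15 (limma P = 0.109; exact permutation test, p = 0.0887), and 5 of 6 recuperated arrays lay above the control mean, although its signal was below the array median on all 12 arrays. Gclc, the catalytic subunit of glutamate-cysteine ligase, differed by 0.03 ± 0.16 and Gss, glutathione synthetase, by 0.03 ± 0.18. For both, the sign turned when single arrays were left out, and the dimmer probe set of Gclc gave -0.04 ± 0.21. Gclm, the modifier subunit of the ligase, was the exception, at -0.25 ± 0.15 (limma P = 0.133; exact permutation test, p = 0.128), with 3 recuperated arrays below every control array. None of the 4 passed the threshold, and their median was 0.03.

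The transferases attach glutathione to electrophiles such as the aldehydes of lipid peroxidation. Of the 7 measured, 5 were negative, with a median of -0.22 that became -0.04 without recuperated array 4, on which 5 of the 7 read lowest. Gsta4, which handles 4-hydroxynonenal, went from -0.31 to -0.12 in this way, Gstm1 from -0.22 to -0.04 and the microsomal transferase Mgst1 from -0.28 to -0.11. The value of Mgst1 on that array was 3.22, with 3.92 or more on every other array. Mgst3, a second microsomal transferase, was the opposite case. It read highest of all 12 arrays on recuperated array 4, at 2.41. Its difference of -0.28 ± 0.22 (exact permutation test, p = 0.273) was -0.46 without it (limma P = 0.0170; exact permutation test, p = 0.0303). Gstp1 differed by -0.11 ± 0.19, Gsto1 by 0.08 ± 0.14 and Gstm2 by 0.18 ± 0.39, the last with recuperated values from -3.59 to -1.09 against -3.24 to -2.47 in controls and a sign that turned with array quality weights. Transferases of the mu class are similar in sequence, and how their probe sets divide signal between Gstm1 and Gstm2 is not known here.

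The glutaredoxins, which remove glutathione from proteins, differed by -0.09 ± 0.15 (Glrx) and 0.03 ± 0.11 (Glrx2). The second probe set of each gave -0.10 and 0.02. For all 17 glutathione genes together the median was -0.22 with 11 negative, and without recuperated array 4 it was -0.04 with 12 negative. On that array the 17 genes lay on average 0.55 below their control means (mean deviation -0.55), on the other recuperated arrays between -0.15 and 0.07, and on the control arrays between -0.08 and 0.12.

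The thioredoxin genes kept their median when that array was left out, at -0.10 (10 of 11 negative with all arrays, 9 without it). Without recuperated array 5, which was low for these genes, their median was -0.08. Txn2, the mitochondrial thioredoxin, had the smallest P of the group. It read 1.89, 2.16 and 2.43 at the lowest, median and highest control array and 1.5, 1.80 and 2.05 in recuperated animals. All 6 recuperated arrays lay below the control mean of 2.15 ± 0.21 (SD, n = 6), and arrays 4, 5 and 6 lay below every control array. The difference was -0.35 ± 0.14 (limma P = 0.0248, adjusted p = 0.999; exact permutation test, p = 0.0260), a level 0.785 of control. It was -0.29 without recuperated array 4 (limma P = 0.0563; exact permutation test, p = 0.0476). Leaving out control array 2 or 5 or recuperated array 6 also put the limma P above 0.05, up to 0.0605, while the exact p ranged from 0.0173 to 0.0498 over the 12 arrays left out in turn.

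The other mitochondrial proteins of this system had values of unequal size. Txnrd2, the mitochondrial thioredoxin reductase, differed by -0.30 ± 0.19 (limma P = 0.123; exact permutation test, p = 0.156) and by -0.29 without recuperated array 4, with a signal above the array median on 2 of 12 arrays. Prdx3, the peroxiredoxin that mitochondrial thioredoxin recharges, differed by -0.01 ± 0.16. In the cytosol, Txn1 encodes the main thioredoxin. Its control values were 5.80, 6.04 and 6.13 and its recuperated values 5.76, 5.92 and 5.99, a difference of -0.10 ± 0.10 (limma P = 0.333; exact permutation test, p = 0.126). All 6 recuperated arrays lay below the control mean of Txn1, and 1 of them lay below every control array. Txnrd1, its reductase, differed by -0.02 ± 0.16, while its dimmer probe set gave 0.37 ± 0.43. Txnip, the thioredoxin inhibitor that rises with glucose, differed by -0.21 ± 0.23.

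The 5 measured peroxiredoxins had a median of -0.06. All 5 were negative, but the sign of Prdx3 turned without subtraction of array medians (0.01), with linear means (0.02), with array quality weights (0.05), without control array 5 (0.04) and without recuperated array 5 (0.12). Prdx2, a cytosolic peroxiredoxin that is abundant in neurons, read 5.51, 5.61 and 5.79 in controls and 5.37, 5.48 and 5.68 in recuperated animals. These values overlapped, although 3 recuperated arrays lay below every control array, and the difference was -0.14 ± 0.11 (limma P = 0.211; exact permutation test, p = 0.0628). Prdx4, the form in the endoplasmic reticulum, differed by -0.29 ± 0.19 (limma P = 0.156; exact permutation test, p = 0.186), and Prdx5 and Prdx6 by -0.06 ± 0.11 and -0.06 ± 0.13. Srxn1, sulfiredoxin, which repairs over-oxidised peroxiredoxins, was the one positive member of the thioredoxin group, at 0.09 ± 0.19. Its 3 probe sets gave 0.09, -0.21 and 0.07.

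A second recuperated array was low for the thioredoxin genes. On recuperated array 5 the 11 genes had a mean deviation of -0.40 from their control means, and 5 of them, Srxn1, Prdx2, Prdx3, Prdx4 and Txn1, read lowest of the 12 arrays. Over the whole list, 16 of 40 genes were lowest on recuperated array 4 (40.0%) and 10 on recuperated array 5 (25%), where 14.6% and 11.4% of all probe sets were lowest on these arrays. The 16 comprised 10 glutathione genes, 2 thioredoxin genes and 4 of the Nrf2 and haem group. On array 5 the mean levels of the ARC, VMN, tanycyte and astrocyte marker lists lay within the range of the other arrays. The microglial list had a mean of 0.89, the next lowest after array 4. Single markers of other lists stood out there. Ttr, counted with meninges and mural cells, read 4.22, against -2.18 to 2.64 on the other arrays. Cldn5 (1.18), Vwf (0.17), Lum (-4.05) and Mobp (5.85) read lowest of the 12 arrays, and Aqp4, Slco1c1, Dio2 and Pomc highest. The part of the microglial and other marker signals in these results was not tested. In all, 31 genes were lowest on a recuperated and 9 on a control array, where 60.3% of all probe sets were lowest on a recuperated array. The 31 include Txnrd1, which read 2.78 on both recuperated array 2 and control array 5.

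**Figure D3:**
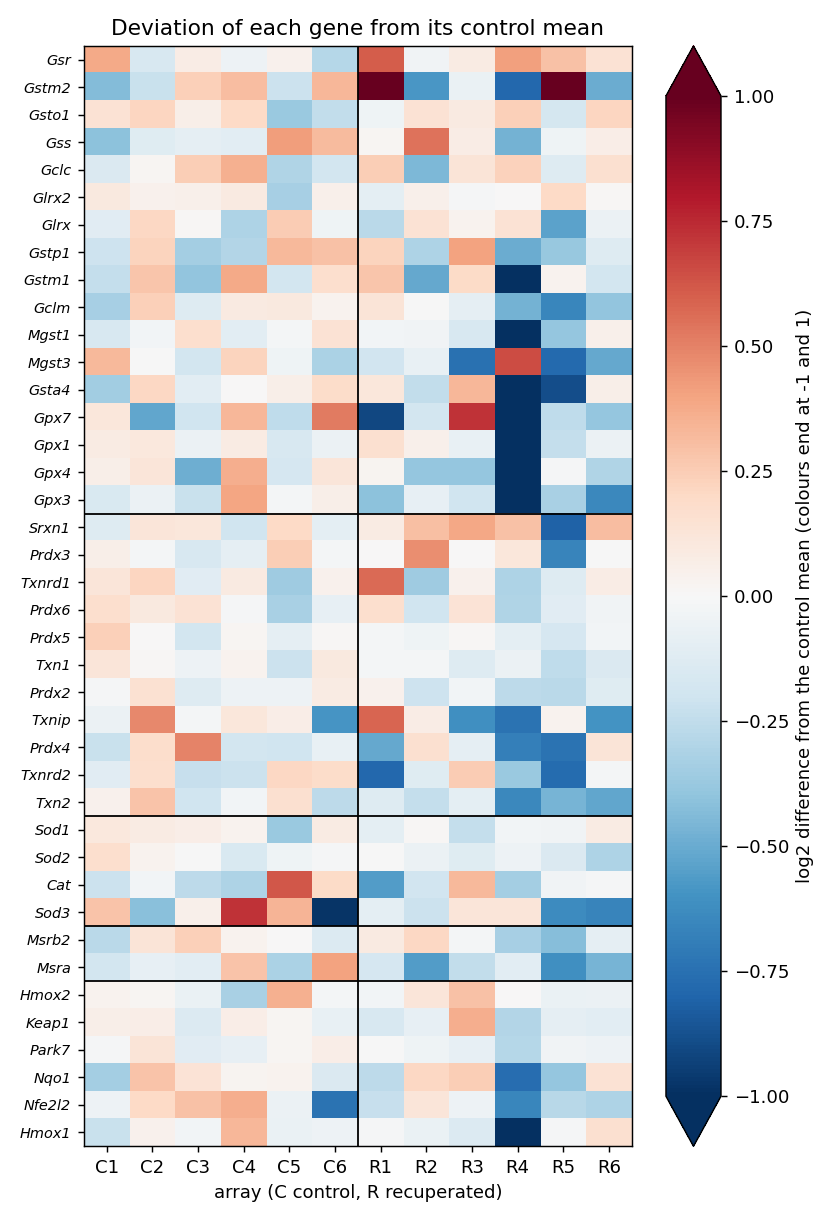
Deviation of each gene (rows, in subgroups divided by black lines) from its control mean on each array (columns, C1 to C6 control and R1 to R6 recuperated), in log2 units, with colours ending at -1 and 1. The darkest blue lies in column R4 among the peroxidases and transferases and in Hmox1, and column R5 is blue among the thioredoxin genes.

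The enzymes that act on superoxide and hydrogen peroxide directly differed by little. Sod1, the cytosolic copper-zinc dismutase, read 6.28, 6.73 and 6.76 in controls and 6.42, 6.63 and 6.74 in recuperated animals, a difference of -0.05 ± 0.12 (limma P = 0.687; exact permutation test, p = 0.608). Its lowest array was control array 5. Sod2, the mitochondrial manganese dismutase, read 3.75, 3.90 and 4.07 in controls and 3.59, 3.81 and 3.90 in recuperated animals. All 6 recuperated arrays lay below the control mean of Sod2, but 5 of them lay within the control range, and the difference was -0.12 ± 0.10 (limma P = 0.291; exact permutation test, p = 0.0952). Cat, the peroxisomal catalase, read 3.51, 3.70 and 4.44 in controls and 3.26, 3.71 and 4.14 in recuperated animals, a difference of -0.14 ± 0.18 (limma P = 0.477; exact permutation test, p = 0.511), with medians of nearly the same size. Sod3, the extracellular dismutase, differed by -0.23 ± 0.26 and ranged over the control arrays from -0.92 to 0.78. The median of the 4 was -0.13, and -0.11 without recuperated array 4.

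The methionine sulphoxide reductases repair oxidised methionine in proteins with electrons from thioredoxin. Msra, which reduces the S form of the sulphoxide, read 0.03, 0.25 and 0.75 at the lowest, median and highest control array and -0.27, -0.01 and 0.24 in recuperated animals. All 6 recuperated arrays lay below the control mean of 0.35 ± 0.28 (SD, n = 6), and arrays 2, 5 and 6 lay below every control array. The difference was -0.36 ± 0.15 (limma P = 0.0334, adjusted p = 0.999; exact permutation test, p = 0.0411), a level 0.780 of control. Recuperated array 4 was the highest of its group for this gene, and without it the difference was -0.41 (limma P = 0.0213; exact permutation test, p = 0.0260). Leaving out control array 4 or 6 or recuperated array 2, 5 or 6 put the limma P above 0.05, up to 0.0825, with a difference no nearer to 0 than -0.28, and the exact p exceeded 0.05 for 6 of the 12 arrays left out in turn. The signal of Msra exceeded the array median on 9 of the 12 arrays. Msrb2, a mitochondrial reductase of the R form, differed by -0.10 ± 0.14 (limma P = 0.496; exact permutation test, p = 0.454).

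Among the regulators, Nfe2l2 read 0.97, 1.79 and 2.07 at the lowest, median and highest control array and 1.06, 1.46 and 1.83 in recuperated animals. The recuperated values lay within the control range, and the difference was -0.23 ± 0.19 (limma P = 0.235; exact permutation test, p = 0.275). Without control array 6, the lowest, it was -0.38 (limma P = 0.0269; exact permutation test, p = 0.0303). Keap1 read 2.03, 2.20 and 2.23 in controls and 1.87, 2.07 and 2.53 in recuperated animals, a difference of -0.06 ± 0.12 (limma P = 0.623; exact permutation test, p = 0.571). Its highest value of the 12 was that of recuperated array 3. Park7 (DJ-1), a protein that senses oxidation and stabilises Nrf2, differed by -0.08 ± 0.10.

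The classical targets of Nrf2 in this group also overlapped between the groups. Hmox1, the inducible haem oxygenase, read 0.10, 0.28 and 0.65 in controls and -1.02, 0.28 and 0.48 in recuperated animals. The group medians were alike and recuperated array 4 alone was low, so that the difference of -0.23 ± 0.22 (limma P = 0.301; exact permutation test, p = 0.459) became -0.01 without it. Nqo1, a quinone reductase, went in the same way from -0.14 ± 0.18 to -0.01. Hmox2, the constitutive haem oxygenase, differed by 0.04 ± 0.13. The median of the 6 genes was -0.11 and -0.01 without that array.

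**Figure D4:**
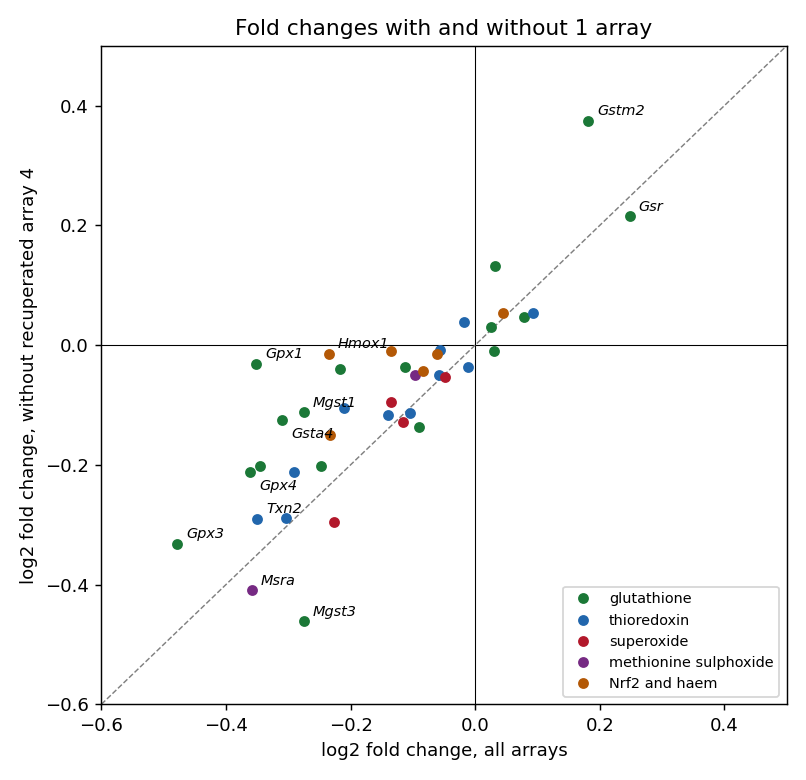
Log2 fold change of each gene with all 12 arrays (horizontal axis) against that without recuperated array 4 (vertical axis); the dashed line is equality and selected genes are named. Gpx1 and Hmox1 rise to -0.03 and -0.01, Gpx3 lies at -0.33, and Mgst3 and Msra lie below the line at -0.46 and -0.41.

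The medians of the subgroups moved to unequal degrees when recuperated array 4 was left out. Those of the thioredoxin, superoxide and methionine sulphoxide genes were -0.10, -0.11 and -0.23 without it, each within 0.02 of the value with it, while the medians of the glutathione and the Nrf2 and haem genes were -0.04 and -0.01. These are descriptions of small sets of genes measured on the same animals, and no difference between subgroups was tested.

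Another 62 genes of the same pathways were looked up in the same way, and 56 of them were measured, among them further transferases, the cystine transporter, NADPH-producing enzymes and metallothioneins. Of the 56, 37 were negative, where 56.6% of all probe sets were, and 19 were positive, with a median of -0.06, and -0.02 without recuperated array 4. None passed the threshold of 1.3-fold with P under 0.05 in either direction, 0 were called after adjustment in limma, and 2 were lower at an unadjusted P under 0.05, where 2.00% of all probe sets were. Bach1, the repressor that competes with Nrf2 at its response elements, read -0.95, -0.54 and -0.08 at the lowest, median and highest control array and -1.14, -0.98 and -0.60 in recuperated animals. It differed by -0.34 ± 0.16 (limma P = 0.0458; exact permutation test, p = 0.0541), from a signal below the array median on all 12 arrays, and by -0.39 without recuperated array 4. Slc3a2, the heavy chain of the cystine and glutamate exchanger, read 2.85, 3.08 and 3.23 in controls and 2.23, 2.73 and 3.16 in recuperated animals. Its difference was -0.32 ± 0.15 (limma P = 0.0491; exact permutation test, p = 0.0368), and -0.22 without recuperated array 4 (limma P = 0.114; exact permutation test, p = 0.0736). These groups overlapped for both genes. Gpx6, an olfactory peroxidase, read -3.61, -3.51 and -3.23 in controls and -3.92, -3.78 and -3.30 in recuperated animals, a difference of -0.26 ± 0.13 (limma P = 0.0592; exact permutation test, p = 0.0411), with 0 arrays above the array median.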

How the data were processed

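The table deposited by the authors holds log2 expression, 1 column per array, for 31099 probe sets on 12 arrays. The submitters' processing notes name RMA (background correction, quantile normalization and summary of the probes of a probe set) and Affymetrix Expression Console, whereas the study's methods describe GeneSpring GX. The versions of RMA and of Expression Console are not given in the sources used here, and the GCOS and GC-RMA values of the study were not used here. Each array held 1 animal, and groups and animal numbers came from the labels.

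From the deposited log2 values, 57 control probe sets were left out and each array was centred on its median over the 31042 that remained, following the study's scaling to the 50th centile (medians before this step, 6.21 to 6.30). In the platform annotation 20826 probe sets carried 1 symbol, 436 several and 9780 none, and only those with 1 symbol were named. Of the genes listed, 7 had more than 1 probe set, and the one with the highest mean over all arrays was used. Groups were compared in limma 3.58.1 (lmFit, eBayes; R 4.3.3), without covariates and with Benjamini-Hochberg adjustment over all 31042. For single genes an exact permutation test (two-sided, every arrangement of the arrays) is given beside limma. P-values from limma are unadjusted unless called adjusted, and SE is the moderated standard error of limma. Tables and plots were made in Python 3.11.15 (numpy 2.4.6; scipy 1.17.1; pandas 2.3.3; matplotlib 3.10.9). The fit was tested on simulated data. Pairwise correlations between arrays lay between 0.9589 and 0.9879 across probe sets, and no pair of arrays held the same values.

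The members of the list, its subgroups, the pathway genes and the marker lists were chosen with earlier results of these data known. Every measured gene is accounted for. Values by group are given for the smallest P of each subgroup, for any P or exact p under 0.05, and for Gpx1, Gpx4, Sod1, Sod2, Cat, Prdx2, Txn1, Nfe2l2, Keap1 and Hmox1, and of the other pathway genes for the 3 with the smallest P. The alternatives were the deposited values without centring, quantile normalization of the arrays, leaving out dim probe sets (those above the array median on fewer than 6 arrays), the methods' t-test, array quality weights, a block for the animal number, each array left out in turn, averaging the probe sets of a gene, and folds from linear means. The animal numbers did not pair the arrays. Arrays give no read depth, and their number limits the precision. The sources used here give no genome build for the arrays, and coordinates are those of the RefSeq promoters.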

Additional observations from a re-analysis of the deposited data

Results flagged for a closer look

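In groups of 6, the lowest or highest array stood clear of the others by Dixon's test in 8 of 80 tests, where chance gives about 1 in 20. Of the 8, 4 were low values of recuperated array 4. Gpx1 read 2.24 there, against 3.96 to 4.36 on the other recuperated arrays, Gpx4 read 2.80 against 3.52 to 3.94, Park7 read 5.29 against 5.49 to 5.57 and Hmox1 read -1.02 against 0.18 to 0.48. That array also had the lowest ARC marker signal and the highest VMN marker signal, and their part in these 4 values was not tested. Srxn1 read 1.11 on recuperated array 5, against 2.00 to 2.31. Keap1 read 2.53 on recuperated array 3, the one high value among the 8, against 1.87 to 2.08. On control array 5, Glrx2 read 3.90 against 4.27 to 4.33 and Sod1 read 6.28 against 6.69 to 6.76.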

How the results depend on the processing

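The 1 gene lower at 1.3-fold with P under 0.05 (Gpx3) became 0 with the animal number as a replicate block, and 0 to 5 genes when single arrays were left out, with 0 without control array 4 and 5 without recuperated array 3. The 3 genes at an unadjusted limma P under 0.05 became 1 to 5, with 1 without control array 4 or recuperated array 6 and 5 without recuperated array 3. The counts of 0 genes higher at 1.3-fold with P under 0.05 and 0 after adjustment were the same under every alternative run. At an unadjusted limma P under 0.05 alone, Gsr was higher without control array 1 and Srxn1 without recuperated array 5. The median of the glutathione genes lay between -0.241 and -0.039 with single arrays left out, the latter without recuperated array 4. The replicate block moved the P of no gene but Gpx3 across 0.05. Animals with the same number deviated in common no more than others (correlations -0.27 to 0.02 over probe sets, with 0 of 6 numbers correlating best with their own), so the block is given here only.

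Of 316 fold changes of single genes under the other alternatives, 304 kept their sign and their side of 0.05 in P, and 11 turned sign. These were, with array quality weights, Gclc (-0.0011), Gstm2 (-0.0062), Prdx3 (0.0526) and Nqo1 (0.0044), without subtraction of array medians Prdx3 (0.0083) and Txnrd1 (0.0017), with linear means Prdx3 (0.0190) and Txnrd1 (0.0039), and with the mean of all probe sets Gclc (-0.0042), Srxn1 (-0.0156) and Txnrd1 (0.1775). With single arrays left out, the sign turned for Gclc (-0.0303 to 0.1263), Glrx2 (-0.041 to 0.050), Gss (-0.0713 to 0.1327), Gstm2 (-0.125 to 0.375), Hmox2 (-0.0203 to 0.1157), Prdx3 (-0.1073 to 0.1187) and Txnrd1 (-0.1347 to 0.0493). The causes were not tested. The number of arrays limits what can be told apart, with a median standard error of 0.17, and signal below the array median on most arrays (Gsr, Gstm2, Gpx7, Txnrd2) limits those genes further.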
